A study of Caenorhabditis elegans with 2 samples.

Results

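The genes described here are 38 genes of Caenorhabditis elegans that serve the synapse or are used as pan-neuronal genes. There are 19973 nuclear protein-coding genes in all. The 38 were chosen by name and role, with earlier results of these data known. All 38 were found in the Ensembl annotation of the WBcel235 assembly (ce11). The list holds 10 genes of vesicle release (unc-13, unc-10, unc-18, unc-64, snb-1, ric-4, snt-1, rab-3, unc-31 and aex-3), 3 of vesicle endocytosis (unc-11, unc-26 and unc-57), 7 of ion channels (unc-2, egl-19, cca-1, unc-36, slo-1, shk-1 and shl-1), 5 of the active zone (syd-1, syd-2, rpm-1, cla-1 and elks-1), 7 of the axon, its cytoskeleton and its transport (unc-104, unc-119, unc-33, unc-44, unc-76, unc-51 and unc-70), 4 of peptides and dense-core vesicles (egl-3, egl-21, ida-1 and ric-19) and 2 of neuronal signalling (rgef-1 and ric-8). A gene was given every peak whose summit lay from 1000 bp upstream of an annotated transcript 5' end to the end of the gene.

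The peaks came from chromatin immunoprecipitation and sequencing (ChIP-seq) of EGRH-3, which belongs to the EGR (early growth response) zinc finger proteins. The worms, strain RW12196, carried egrh-3::TY1::EGFP::3xFLAG, a CRISPR insertion at the egrh-3 locus on chromosome IV, and an antibody to GFP was used for the pull-down. There was 1 group of 2 biological replicates, each of whole young adults at 65 h, synchronised by starving L1 larvae after bleaching, with chromatin sheared to 200 to 800 bp. No list of untagged worms was used here, the deposited lists hold no read counts, so depth is unknown, and in whole worms a summit at a neuronal gene cannot be assigned to neurons.

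At a chemical synapse, calcium entering through voltage-gated channels at the active zone triggers the fusion of transmitter-filled vesicles by SNARE proteins, and the vesicle membrane is then retrieved and refilled. Dense-core vesicles, which carry neuropeptides and amines, are made in the cell body and use a partly different release machinery. Kinesin motors, spectrin, ankyrin and other cytoskeletal proteins build the axon and carry cargo to its terminals, and several genes of the list, among them egl-19, slo-1 and unc-70, also act outside neurons.

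Of the 38 genes, 9 held a summit in the conservative list, the smaller of 2 thresholded lists deposited for both replicates together, with 12 summits among them. They were unc-2, unc-33, unc-104, unc-70, unc-51, unc-44, ida-1, aex-3 and unc-76. That is 23.7% of the genes (95% interval 11.4 to 40.2), against 8.12% of all protein-coding genes by the same rule. The genes are long, and counted per base the summits were as dense as elsewhere, at 2.46 per 100 kb of gene window (95% interval 1.27 to 4.30, 12 summits in 487 kb), against 2.43 per 100 kb over all protein-coding genes. Of the 12 summits, 3 lay in promoters, 4 in exons and 5 in introns. Intervals are exact, binomial for shares and Poisson for densities, and cover counting error over genes or summits, which are not independent replicates.

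**Figure D1:**
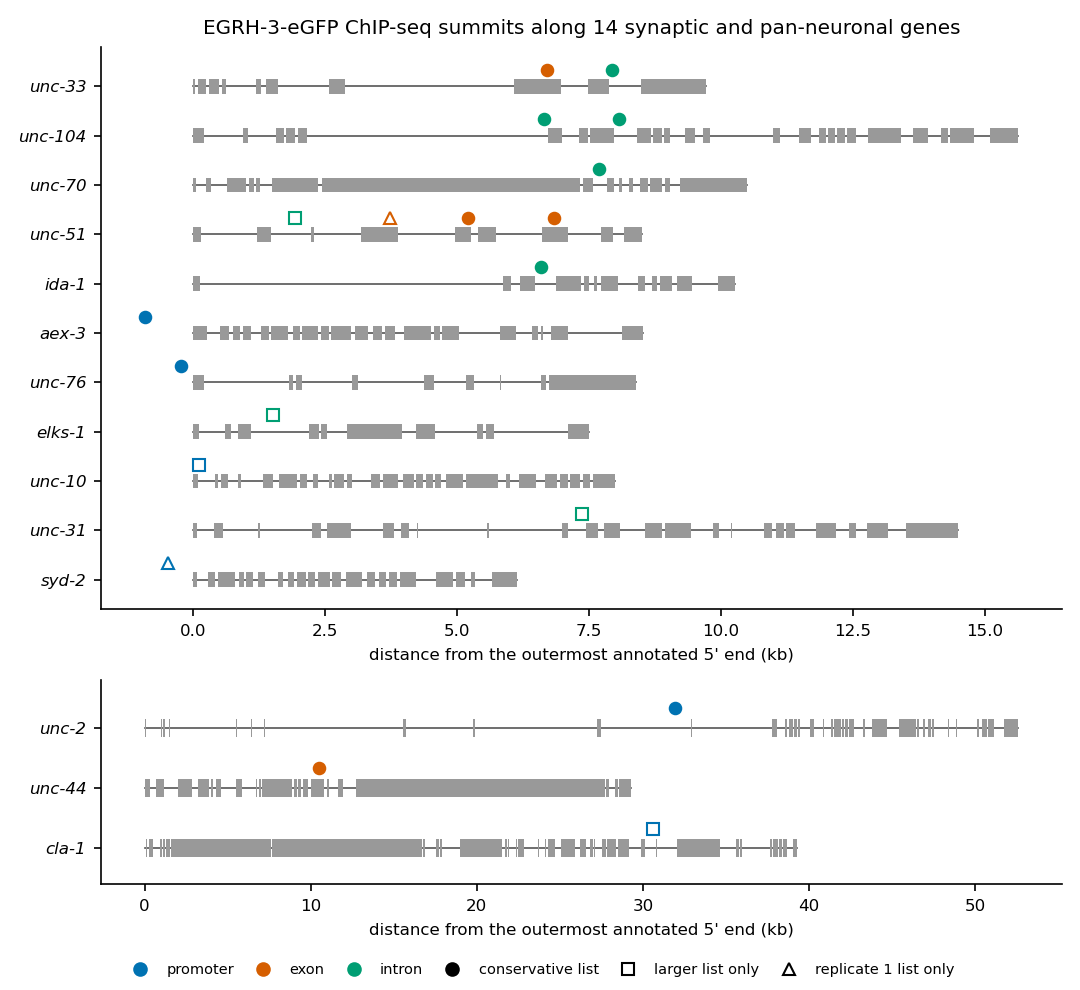
Position of each summit (symbols) along the 14 genes with a summit in any thresholded list, in kb from the outermost annotated 5' end, with exons of all transcripts as grey boxes and the 3 longest genes on an axis of their own. Filled circles are the 12 summits of the conservative list. Open squares are summits of the larger list that the conservative list lacks, all of them also in the list of replicate 1. Open triangles are those found in the list of replicate 1 only, and colour gives the promoter, exon or intron class.

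The sequence at the summits showed what kind of DNA lay under the peaks, and all windows below run 50 bp to each side of a summit on the plus strand of the RefSeq WBcel235 (ce11) genome, 101 bases each. The window at unc-2 (chrX:2731557-2731657) is that of the strongest promoter summit, and it held an unbroken run of 20 G, in capitals. The window at aex-3 (chrX:760602-760702) is shown because it held a run of 20 C. Such a run also stood at summits of the larger list at unc-10 (chrX:7280157-7280257), with 20 bases, and elks-1 (chrIV:3348468-3348568), with 14. The last 3 of these windows were added after their values were seen.
unc-2: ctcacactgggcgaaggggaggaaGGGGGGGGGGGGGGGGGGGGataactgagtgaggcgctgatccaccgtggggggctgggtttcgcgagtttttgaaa
aex-3: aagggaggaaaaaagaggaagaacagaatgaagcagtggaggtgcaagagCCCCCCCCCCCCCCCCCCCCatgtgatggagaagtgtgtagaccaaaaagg
unc-10: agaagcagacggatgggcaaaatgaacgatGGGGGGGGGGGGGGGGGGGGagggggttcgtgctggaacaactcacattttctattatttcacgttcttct
elks-1: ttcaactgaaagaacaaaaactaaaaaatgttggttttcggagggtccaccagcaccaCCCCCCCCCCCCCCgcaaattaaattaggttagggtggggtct

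The windows of unc-104 and unc-70 are among those of the strongest summits. They are set beside the other intron summits of the conservative list because each of these stood in or beside a gene for a small RNA, whose bases within the window are in capitals. At unc-104 the capitals are a tRNA pseudogene (chrII:7001596-7001696) and, at a further summit, a tRNA-Ala gene read from the minus strand (chrII:7003019-7003119). At unc-33 they are a tRNA-Arg gene (chrIV:3524770-3524870), at ida-1 a tRNA-Gly gene on the minus strand (chrIII:5762081-5762181) and at unc-70 the first 7 bases of a snoRNA gene (chrV:6888982-6889082). The windows of ida-1 and unc-33 were added after their values were seen.
unc-104: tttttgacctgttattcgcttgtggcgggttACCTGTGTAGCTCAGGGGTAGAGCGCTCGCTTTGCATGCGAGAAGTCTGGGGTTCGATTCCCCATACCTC
unc-104, further summit: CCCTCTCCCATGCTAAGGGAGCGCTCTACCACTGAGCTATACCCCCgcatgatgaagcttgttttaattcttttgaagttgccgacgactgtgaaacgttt
unc-33, intron: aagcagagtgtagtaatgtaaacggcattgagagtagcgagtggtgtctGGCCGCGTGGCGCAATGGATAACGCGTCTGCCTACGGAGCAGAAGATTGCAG
ida-1: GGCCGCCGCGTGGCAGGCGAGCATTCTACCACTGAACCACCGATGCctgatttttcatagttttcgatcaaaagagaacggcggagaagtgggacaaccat
unc-70: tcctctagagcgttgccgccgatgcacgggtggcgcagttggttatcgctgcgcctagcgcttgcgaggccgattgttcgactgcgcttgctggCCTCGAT

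The strongest exon summits of different genes, at unc-33 (chrIV:3523549-3523649) and unc-51 (chrV:19999224-19999324), lay wholly in coding sequence, which is in capitals, and unc-51 is read from the minus strand. Neither window held a run of more than 3 of the same base G or C.
unc-33, exon: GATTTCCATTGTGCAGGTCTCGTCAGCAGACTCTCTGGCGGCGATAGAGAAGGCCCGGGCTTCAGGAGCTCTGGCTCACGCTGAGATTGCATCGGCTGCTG
unc-51: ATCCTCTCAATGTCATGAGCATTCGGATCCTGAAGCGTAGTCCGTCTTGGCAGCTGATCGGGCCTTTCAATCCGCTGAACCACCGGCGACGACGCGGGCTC

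The axon and cytoskeleton genes held most of the summits. In this role 6 of 7 genes had a summit in the conservative list, with 9 of the 12 summits, and their median length was 9717 bp. Channel genes, with a longer median of 13159 bp, had 1 of 7, and active zone genes, with 9218 bp, had 0 of 5 (2 of 5 in the larger list). Vesicle release, with 7318 bp, had 1 of 10 (3 of 10 in the larger list), and peptide genes, with 4089 bp, 1 of 4. The 3 endocytosis and 2 signalling genes had none. Beside these small counts stand 8.12% of all protein-coding genes and 20.3% of those over 6771 bp. In the larger list these shares were 11.5% and 29.3%. The roles were not tested against each other. In the axon role, the summits of unc-104 and unc-70 and the intron summit of unc-33 stood within 100 bp of small RNA genes. They are called uncertain below, as are those of unc-2, aex-3 and ida-1. Apart from these, unc-33, unc-51, unc-44 and unc-76 still had a summit. Signal below is the authors' measure of a peak's strength, with no stated scaling, and ranks run from 1 for the strongest of the 2194 nuclear peaks of the list.

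unc-104 (WBGene00006831, chromosome II, 6994987 to 7010625, plus strand) encodes the KIF1A-type kinesin that carries synaptic vesicle precursors along the axon. Its stronger summit, at 7001646, lay in intron 5 of 23 of the longest transcript, a 4567 bp intron, and inside the tRNA pseudogene C52E12.t1. The signal was 144, rank 1057, and the replicates' own ranked lists gave 59.8 in replicate 1 and 81.9 in replicate 2. It was the only summit of this role other than that of unc-70 found in the thresholded lists of both replicates. The further summit, at 7003069 in intron 8, stood 5 bp from the tRNA-Ala gene C52E12.t3 and had a signal of 113, with 60.6 in replicate 1 and 47.9 in replicate 2.

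unc-33 (WBGene00006769, chromosome IV, 3516886 to 3526602, plus strand) encodes a CRMP-type protein that organises the axonal cytoskeleton. Its stronger summit, at 3523599 in coding exon 8 of 10, had a signal of 153, rank 969, and was in the list of replicate 1 only. The signals there were 122 in replicate 1 and 38 in replicate 2, a ratio of 3.21. The further summit, at 3524820 in the last intron, lay inside the tRNA-Arg gene M57.t1 and an annotated noncoding RNA, Y37E11C.3. It had a signal of 95.7, with 50.4 in replicate 1 and 44.4 in replicate 2, and neither replicate's own list past the threshold held it.

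unc-70 (WBGene00006803, chromosome V, 6881338 to 6891839, plus strand) encodes beta-spectrin, a membrane skeleton protein that keeps axons from breaking. Its summit at 6889032 lay in intron 6 of 10, 44 bp from the snoRNA gene K11C4.6 and inside the annotated noncoding RNA K11C4.7. The signal was 118, rank 1351, the replicates gave 58.0 each, and both held the peak. unc-44 (WBGene00006780, chromosome IV, 5975557 to 6004857, plus strand) encodes ankyrin, which links spectrin to membrane proteins. Its summit at 5986043 lay in a coding exon of a shorter transcript that is part of intron 13 of the longest one, 458 bp downstream of an internal 5' end. The signal was 108, rank 1512, with 69.2 in replicate 1, whose list held the peak, and 34.3 in replicate 2.

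unc-51 (WBGene00006786, chromosome V, 19995986 to 20004485, minus strand) encodes the ULK-type kinase of autophagy and axon guidance. It was the gene with the most summits once all lists were counted, 4 along 8500 bp. The summits in coding exon 5 at 19999274 and coding exon 7 at 19997641 were in the conservative list, with signals of 115 and 88.4. A summit in intron 2 at 20002558, with a signal of 92.7, was in the larger list, and another in coding exon 4 at 20000748 was in the list of replicate 1 alone. Replicate 1 held all 4 in its own thresholded list and replicate 2 held none, although its ranked list gave signals of 50, 35.0 and 27.1 at the first 3 of them. The GC content at the 4 summits ran from 57.4% to 65.3%, against 41.0% over the window of the whole gene. These further summits were singled out after their values were seen.

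unc-76 (WBGene00006808, chromosome V, 15071760 to 15080152, plus strand) encodes a FEZ-type protein of axon bundling and transport. Its summit stood 222 bp upstream of the gene, at 15071538, in none of the gene's exons. The signal of 75.4 was the lowest of the 12, with 40.2 in replicate 1 and 38.9 in replicate 2, and neither replicate's own thresholded list held it. Its global IDR (irreproducible discovery rate, an estimate of the share of irreproducible peaks down to a given rank) was 0.00970. That is just inside the 0.01 that bounds the conservative list. unc-119, a lipid-binding trafficking factor used as a pan-neuronal gene, had no thresholded summit, and its best ranked region had an IDR of 0.123.

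Among channel genes, unc-2 (WBGene00006742, chromosome X, 2710920 to 2763526, minus strand) had the strongest summit of the 38 genes. It encodes the presynaptic CaV2 calcium channel. The summit at 2731607 had a signal of 526, rank 150, and an IDR of 2.83e-05, and it was in all 4 thresholded lists. It counted as promoter because it stood 181 bp upstream of an internal 5' end, but it was 31919 bp into the gene and in an intron. The signals were 452 in replicate 1 and 81.8 in replicate 2, and the ratio of 5.53 was the highest of the 12 summits.

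Of the vesicle release genes, aex-3 alone had a conservative summit (WBGene00000086, chromosome X, 751203 to 759734, minus strand). It encodes the exchange factor that activates RAB-3. The summit at 760652 stood 918 bp upstream and its signal was 85.5, rank 1952, with 58.4 in replicate 1 and 32.4 in replicate 2. Of the peptide genes, ida-1 had such a summit (WBGene00002048, chromosome III, 5755539 to 5765816, plus strand). It encodes an IA-2-type membrane protein of dense-core vesicles. The summit at 5762131, in intron 3 of 11, stood 5 bp from the tRNA-Gly gene B0244.t3. It had a signal of 96.6, rank 1727, with 38.3 in replicate 1 and 59.2 in replicate 2, and was the only summit of the 12 found in replicate 2's list and not in replicate 1's.

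The larger list added 4 genes, for 13 of 38 (34.2%, 95% interval 19.6 to 51.4) and 17 summits, against 11.5% of all protein-coding genes. The added genes serve the active zone and vesicle release. cla-1 encodes the scaffold Clarinet, elks-1 the ELKS scaffold, unc-10 RIM and unc-31 the CAPS protein of dense-core vesicle release. The cla-1 summit (chromosome IV, 7619558) stood in an intron 185 bp upstream of an internal 5' end, with a signal of 185, and overlapped the noncoding RNA F45E4.15. The elks-1 summit (chromosome IV, 3348518, intron 3 of 9) had a signal of 177. In the ranked list of the series, the global IDR was 0.0759 at this summit and 0.148 at that of unc-31. The best values at cla-1 and unc-10 were 0.186 and 0.266, at other regions of these genes.

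The remaining additions were weaker. The unc-10 summit (chromosome X, 7280207) stood 94 bp downstream of a 5' end with a signal of 100, and the unc-31 summit (chromosome IV, 12781235, intron 8 of 19) had a signal of 99.1. These 4 summits and the intron summit of unc-51 were all in replicate 1's thresholded list and none was in replicate 2's. Their ratios of replicate 1 to replicate 2 signal were 8.89 at cla-1, 7.25 at elks-1, 6.55 at unc-10, 4.17 at unc-31 and 2.63 at unc-51. These summits were singled out by their absence from the conservative list, which can itself go with unequal replicates. No value for such summits at all genes is set beside them, so this is not shown to be particular to the listed genes. The list of replicate 1 also held a summit 472 bp upstream of syd-2, the liprin-alpha gene (chromosome X, 10555711), with a signal of 53.8, which overlapped the noncoding RNA F59F5.9 and had no region in replicate 2's ranked list.

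The replicates' own lists differed in how many of the genes they held. Replicate 1 had 12 of the 38 (31.6%, 95% interval 17.5 to 48.7) with 16 summits, against 9.82% of all protein-coding genes. Replicate 2 had 4 of the 38 (10.5%, 95% interval 2.94 to 24.8), namely unc-2, unc-104, unc-70 and ida-1, with 1 summit each, against 5.70% of all protein-coding genes. The lists also differed in size, with 2850 nuclear peaks in replicate 1 and 1439 in replicate 2. In the genes' windows the density was 3.28 summits per 100 kb in replicate 1 (95% interval 1.88 to 5.33), against 3.06 over all genes. It was 0.821 per 100 kb in replicate 2 (0.224 to 2.10), against 1.60 over all genes.

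Of the 12 conservative summits, 3 (25%, 95% interval 5.49 to 57.2) were overlapped by a peak of both replicates' thresholded lists, those of unc-2, unc-70 and the stronger of unc-104. Another 6 were overlapped in replicate 1 only, 1 in replicate 2 only and 2 in neither. Over all 1675 conservative summits at protein-coding genes, 51.8% (49.3 to 54.2) were in both, 31.8% in replicate 1 only, 6.93% in replicate 2 only and 9.49% in neither. All 4 exon summits of the listed genes were in replicate 1 only, against 40.8% of the 546 exon summits at all genes. All 12 had a region in each replicate's ranked list, and over all genes a ratio of the 2 signals could be taken at 1585 of the 1675 summits. Those lists run far past the thresholded ones, so this says little about agreement. The ratios over all genes given next cover these 1585 only. The ratio of replicate 1 to replicate 2 signal had a median of 1.90 at the 4 exon summits (1.31 to 3.21), against 2.43 at exon summits of all genes. At the 5 intron summits it had a median of 1.00 (0.648 to 1.27), against 1.53 at intron summits of all genes, with values on both sides of 1. At the 3 promoter summits it had a median of 1.81 (1.03 to 5.53), against 1.31 at promoter summits of all genes, above it where the exon and intron medians were below theirs.

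**Figure D2:**
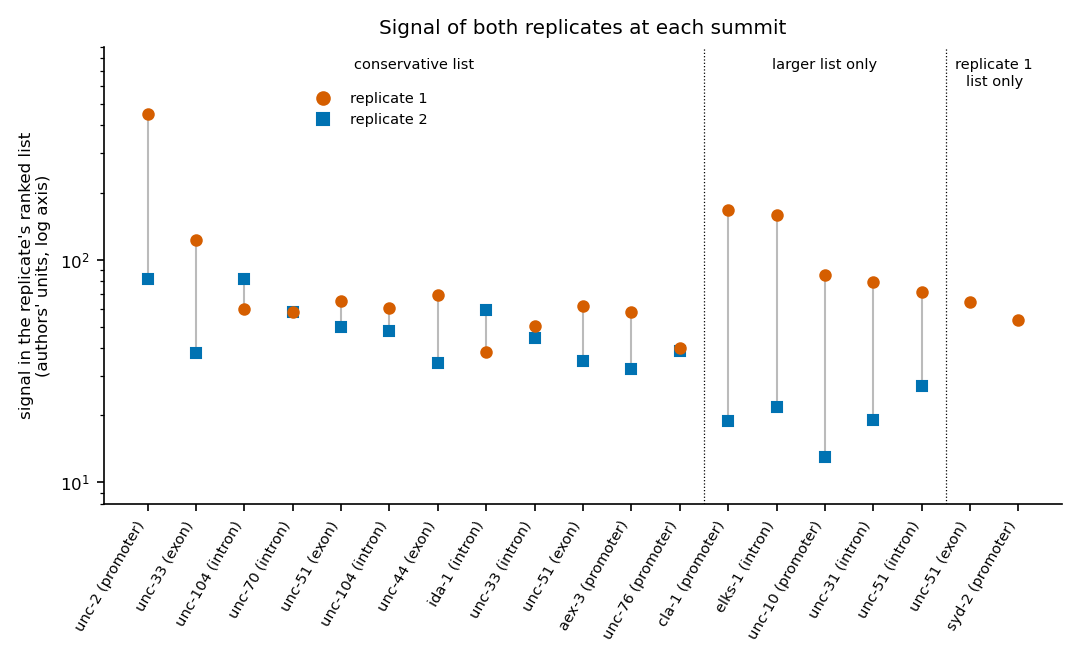
Signal of replicate 1 (circles) and replicate 2 (squares) in each replicate's own ranked list, on a log axis, at each summit, with a grey line joining the 2 values. At unc-2 the values are 452 and 81.8, at the intron summit of unc-70 they coincide at 58.0, and the 2 summits at the right had no region in replicate 2.

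Most of these peaks were of modest strength. In the conservative list the 12 signals ran from 75.4 to 526 with a median of 110, below the median of 140 of the whole list, and 3 of the 12, those of unc-2, unc-33 (exon) and unc-104, were above it. On a scale of 0 for the strongest to 100 for the weakest peak, the median rank was 67.0. In the larger list the median signal of the 17 summits was 108, against 113 for that list, and 8 of 17 were above it. Peak widths were 100 to 400 bp with a median of 400 bp, which is also the median over all genes.

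By position, promoters held 3 of the 12 summits (25%, 95% interval 5.49 to 57.2), against 51.7% of the 2049 pairs of a gene and a conservative summit over all protein-coding genes. Exons held 4 (33.3%, 9.92 to 65.1), against 28.4%, and introns 5 (41.7%, 15.2 to 72.3), against 19.9%. The windows of the listed genes are themselves made up differently. Promoter stretches were 19.1% of their bases against 34.5% over all genes, exons 34.1% against 29.9%, and introns 46.8% against 35.6%. Per 100 kb of the same class, promoters held 3.22 summits (0.664 to 9.42) against 3.64, exons 2.41 (0.656 to 6.16) against 2.30, and introns 2.19 (0.712 to 5.12) against 1.36. In each class the value over all genes was inside the interval.

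Counted by gene, 3 of the 38 (unc-2, aex-3 and unc-76) had a summit in a promoter, against 4.86% over all 19973 genes, 3 had an exon summit (unc-33, unc-51 and unc-44), against 2.33%, and 4 had an intron summit (unc-104, unc-33, unc-70 and ida-1), against 1.63%. The 2 promoter summits outside a gene body, at aex-3 and unc-76, were the weakest of the 12. Between 1000 and 2000 bp upstream, just outside the windows, stood 4 further conservative summits, in no window of a protein-coding gene. They lay 1649 bp upstream of slo-1 with a signal of 245, 1559 bp upstream of unc-70 with 164, 1183 bp upstream of unc-64 with 119 and 1076 bp upstream of unc-57 with 86.5. The share of all protein-coding genes with a summit at such a distance was not computed, and these summits are not counted for the genes.

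The 5 intron summits of the conservative list all stood within 100 bp of a tRNA, tRNA pseudogene or snoRNA gene, as the sequences above show, against 80 of 355 intron summits at all genes (22.5%, 95% interval 18.3 to 27.2). In the larger list it was the same count of 5 among 8 intron summits, none of the added ones, against 18.6%. No exon summit of the listed genes and no promoter summit did. These counts take promoter before intron. With exon or intron taken first, the conservative list had 6 intron summits, with that of unc-2, which stood 40586 bp from the nearest small RNA gene. The larger-list summits of cla-1 and unc-10 also lie in introns but count as promoter. The windows of the 38 genes hold 10 such genes, counting snRNA genes, at unc-31, unc-104, unc-33, unc-70 and ida-1. Of these 10, 5 had a conservative summit within 100 bp (50%), against 157 of 886 (17.7%) in the windows of all protein-coding genes. The 3 snRNA genes in unc-31, the tRNA-Thr gene in unc-104 and the other tRNA-Gly gene in ida-1 had none. Without these summits 6 genes and 7 summits were left, and the share of all genes left in the same way was not computed. tRNA genes exist in near-identical copies, and how reads matching several copies were placed is not given in the sources used here. The summits at tRNA genes and at the tRNA pseudogene are therefore uncertain. The unc-70 summit stood beside a snoRNA gene, which this reason does not cover. It is called uncertain only for its place within 100 bp of a small RNA gene. The distance to small RNA genes was examined after the positions of the summits were seen.

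A run of at least 10 G, or of at least 10 C, lay within 50 bp of 2 of the 12 summits, unc-2 and aex-3, against 3.34% of the 1675 summits at all genes. In the larger list it was 4 of 17, with unc-10 and elks-1, against 3.68% of 2498. These runs, too, were looked for after the sequences were seen. How reads in such runs were placed is likewise not given, so these summits, that of unc-2 among them, are uncertain. None of the 12 windows held GTGGGCG, the core of the site known for mammalian EGR proteins, on either strand, against 1.85% of all summits at genes. None held the related GTGGGTG, against 1.31%, and none held GAGAGA, against 18.7%. No match says only that these letters are not within 50 bp of the summit.

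GC content was higher at the summits than over the genes that hold them. Within 50 bp of the 12 summits it ran from 45.5% at unc-76 to 65.3% at unc-2 with a median of 54.5%, while the windows of the 38 genes had 31.7% to 42.8% with a median of 35.7%. Over the 2049 pairs of a gene and a conservative summit the median was 57.4%, and the 5th to the 95th percentile ran from 41.6% to 68.3%. In this paragraph, values over all genes count a summit once for each gene whose window holds it. The promoter summits had 45.5%, 55.4% and 65.3%, against a median of 54.5% at promoter summits of all genes. The 4 exon summits ran from 53.5% to 59.4% with a median of 57.9%, against 61.4%. The 5 intron summits ran from 48.5% to 63.4% with a median of 53.5%, against 57.4%. Pooled over the listed genes, intron bases are 32.0% GC, below each of the 5 intron summits.

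**Figure D3:**
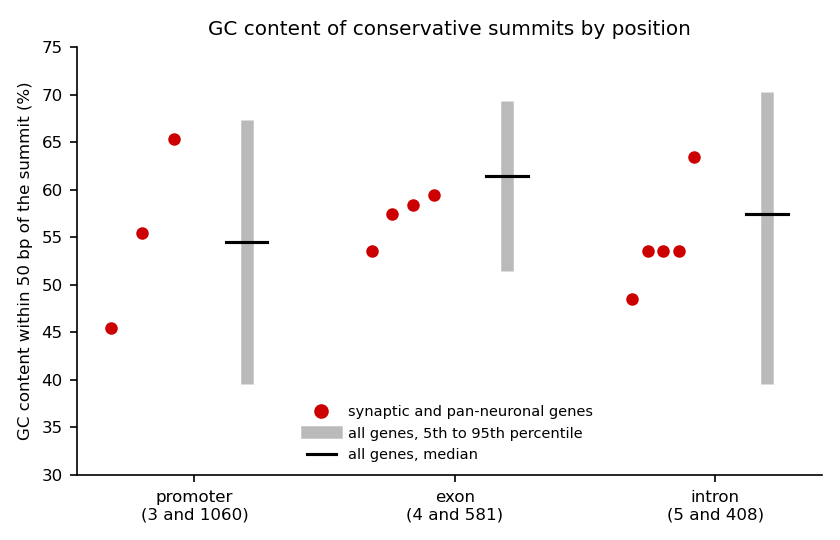
GC content (%) within 50 bp of each conservative summit of the listed genes (red points) by position. Beside them are all pairs of a protein-coding gene and a conservative summit of the same class (grey bar from the 5th to the 95th percentile, black line at the median). Under each class are the number of listed summits and the number of pairs. The points lie inside the grey range in every class, and 3 of the 5 intron points are at 53.5%.

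The listed genes with a summit were longer in the median than those without, with ranges that overlap. The 9 genes with a conservative summit were 8393 to 52607 bp long with a median of 10278 bp, and the 29 without were 940 to 39308 bp with a median of 7344 bp. Over all protein-coding genes the medians were 3260 bp with a summit and 1982 bp without. No listed gene shorter than unc-76, at 8393 bp, had a conservative summit, and 20 of the 38 were at least that long. All 9 were among the 25 listed genes over the 90th percentile of the length of all genes, 6771 bp. Above it, 36.0% of the listed genes had a summit, against 20.3% of 1998 protein-coding genes, and with the larger list 13 of 25 did, against 29.3%. Of the 13 listed genes of 6771 bp or less none had a conservative summit. Of these, 9 were over 3636 bp, where 10.7% of all genes had a summit, 3 were over 2027 bp and up to 3636 bp, where 6.01% did, and 1 was up to 1215 bp, where 6.88% did.

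**Figure D4:**
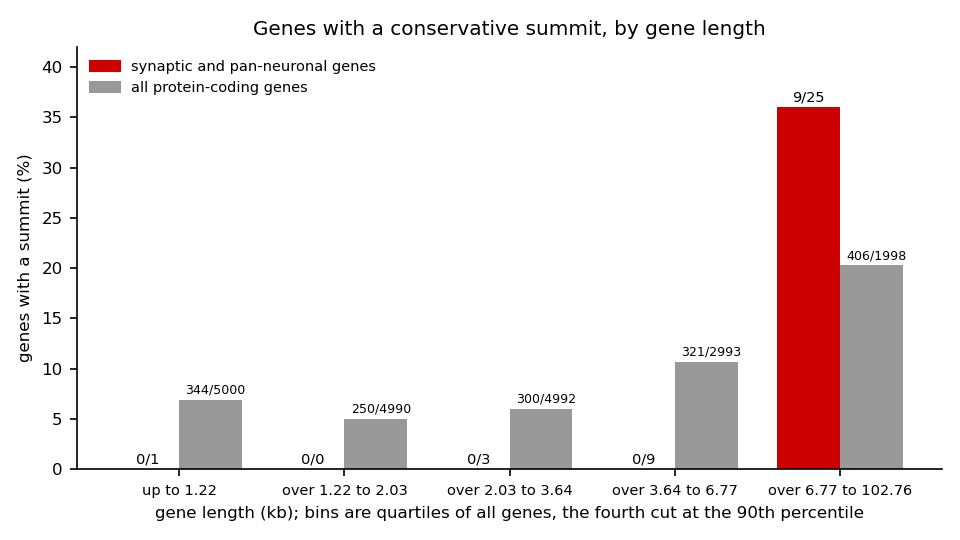
Share of genes (%) with a conservative summit by gene length, for the 38 listed genes (red) and all protein-coding genes (grey), with counts above the bars. Bars are shares of genes in quartiles of length over all genes, the fourth divided at the 90th percentile, and every listed gene with a summit is in the last bin, 9 of 25 against 406 of 1998.

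The other 24 genes had no summit in any thresholded list. Of these, 17 held a region of the ranked list, which is not cut at an IDR, with a best IDR of 0.0179 to 0.711 and a median of 0.305. Lowest among them were egl-3, the proprotein convertase of neuropeptides, at 0.0179, and unc-11, the AP180 clathrin adaptor, at 0.0292. Next were unc-26, synaptojanin, at 0.0301, and rgef-1, a Ras exchange factor used as a pan-neuronal gene, at 0.0346. All these values were below the best ones of the 4 genes added by the larger list, which ran from 0.0759 at elks-1 to 0.266 at unc-10. Absence from the larger list therefore does not mean a higher IDR in the ranked list. The rgef-1 region had a signal of 80.8, which is above that of the unc-76 summit.

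Further out came syd-1, a RhoGAP-like active zone organiser, and egl-21, the carboxypeptidase of neuropeptides, both at 0.138. unc-57, endophilin, had 0.179, egl-19, the CaV1 channel, 0.305, and snb-1, synaptobrevin, and cca-1, the CaV3 channel, 0.464 each. unc-64, syntaxin, had 0.473 and shk-1, a Shaker-type potassium channel, 0.489. The genes slo-1, a BK potassium channel, unc-13, the vesicle priming factor, ric-8, an activator of G proteins, and ric-4, the worm's SNAP-25, were at 0.711. These values hold within the windows. The conservative summits given above upstream of unc-64, slo-1 and unc-57 lie outside the windows and are not assigned to these genes.

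No region of the ranked list fell at unc-18 (Munc18), snt-1 (synaptotagmin), rab-3 (the vesicle GTPase), unc-36 (a calcium channel alpha2/delta subunit), shl-1 (a Shal-type potassium channel), rpm-1 (a ubiquitin ligase of the synapse), ric-19 (an ICA69-type protein) or syd-2. In all, 30 of the 38 genes held a ranked region (78.9%, 95% interval 62.7 to 90.4), against 46.1% of all protein-coding genes. The 138 regions comprised 33 in promoters, 52 in exons and 53 in introns, and stood at 28.3 per 100 kb (23.8 to 33.5), against 29.5 over all genes.

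**Figure D5:**
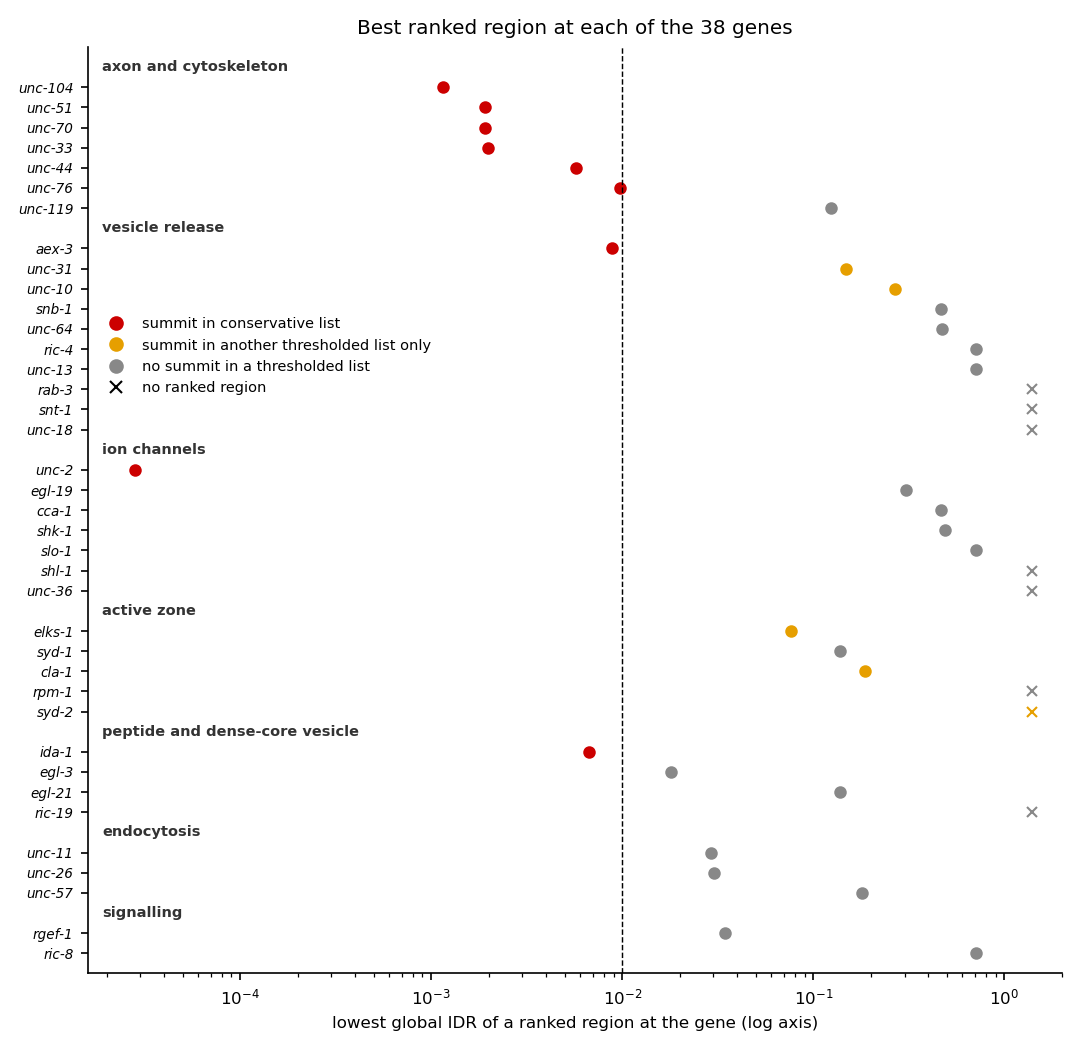
Lowest global IDR of a ranked region at each of the 38 genes, by role, on a log axis, with the dashed line at 0.01 and crosses for genes with no ranked region. Red marks the 9 genes with a conservative summit, all left of the line, orange the 5 with a summit in another thresholded list only and grey the rest. Of the 7 axon and cytoskeleton genes 6 are red, unc-104 and unc-70 only by summits near small RNA genes.

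Other neuronal genes, in 7 lists written from general knowledge but with earlier results of these data known, were described by the same rule. Of 298 genes found, 41 had a conservative summit (13.8%), with 58 summits at 2.17 per 100 kb. The share was 27.0% of 37 other genes of vesicle release and recycling, led by dyn-1, dynamin, with a coding exon summit of signal 495, and pkc-1, a protein kinase C, with 425. It was 26.7% of 60 genes listed under axon guidance, adhesion and transport, led by egl-30, the Gq alpha subunit, with 924, and gsa-1, the Gs alpha subunit, with 740. The name of that list does not describe these 2 G protein genes. Both shares were above the 8.12% of all protein-coding genes, and the lists also hold longer genes, with median lengths of 4795 bp and 7779 bp against 2027 bp.

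Lists at the other end were transmitter receptors, with 5.56% of 54 genes (ser-6, signal 158, and gab-1, signal 102), and other ion channels, with 3.57% of 56 (kcnl-1, 272, and kvs-3, 105), although the channels had a median length of 8993 bp. Between them were transmitter synthesis, transport and uptake with 6.90% of 29 (mod-5, the serotonin transporter, 116, and cat-1, the vesicular monoamine transporter, 102), neuronal transcription factors with 11.8% of 51 (unc-42, 210, and ast-1, 204) and peptide processing with 18.2% of 11 (nep-2, 178, and aex-5, 126). The cat-1 summit stood 6 bp from a tRNA gene and the kvs-3 summit inside a tRNA gene. Per 100 kb the 7 lists ran from 0.293 for other ion channels to 3.94 for release and recycling, with the 38 listed genes at 2.46. With the larger list the counts were 6 of 54 receptors, 5 of 56 channels, 5 of 11 peptide processing genes and 10 of 51 transcription factors, each over 1.5 times the conservative count. They were 11 of 37 for release and recycling, 19 of 60 for axon guidance and 2 of 29 for transmitter synthesis, against 11.5% of all protein-coding genes. No test was made between the lists.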

How the data were processed

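EGRH-3-eGFP ChIP-seq of whole young adult worms, 1 group of 2 replicates, was described from deposited peak lists on ce11, per the file headers: a conservative and a larger thresholded list and a ranked list of the series, and a thresholded and a ranked list of each replicate. The signal and score of each peak were deposited by the authors, without a stated scaling, and scores, whole numbers of at most 1000, order the peaks by IDR. The −log10 values used are the global IDR that the authors deposited in the ranked lists. The thresholded lists end at a score of 830, an IDR of 0.01, and name an additional input file whose role is not stated there. The larger list also holds summits with a higher IDR in the ranked list of the series, 0.0759 at elks-1 and 0.148 at unc-31. The ranked values therefore do not bound the larger list. The aligner, the peak caller and how reads with several matches were placed: not given in the sources used here.

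Nuclear summits were assigned to every protein-coding gene of Ensembl release 115 (WBcel235) whose window, 1000 bp upstream of a transcript 5' end to the gene end, held them. Promoter meant 1000 bp upstream to 200 bp downstream of a 5' end of that gene, and was taken before exon and intron. GC content and motifs (both strands) were read within 50 bp of the summit, and tRNA, tRNA pseudogene, snoRNA and snRNA genes from the RefSeq annotation. Replicate signals came from the strongest region covering the summit in each replicate's ranked list. No significance test was made, and the difference between the 2 replicates is the only measure of their spread. Depth is unknown. Members and gene lists were chosen with earlier results of these data known. Every gene with a conservative summit was named with its strongest summit, the 2 strongest of each other list were named, and sequences were those of the strongest promoter, exon and intron summits and 3 further strongest ones, with the additions said in the text. The assignment was tested on simulated data. Python 3.11.15, numpy 2.4.6, pandas 2.3.3, scipy 1.17.1 and matplotlib 3.10.9 were used.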

Additional observations from a re-analysis of the deposited data

How the results depend on the processing

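The count of 9 genes and 12 summits was within 1.5 times of its value with the larger list, with windows of 500 bp or 2000 bp upstream and with peak midpoints. An IDR under 0.001 gave 1 gene with 1 summit, unc-2, and peaks above the median signal gave 3 genes with 3 summits. The share of all protein-coding genes was not computed at these cuts, for the other windows or for peak midpoints. These counts therefore cannot be set against a background. Each replicate's own list gave 4 to 12 genes and 4 to 16 summits, with 1 to 5 promoter, 0 to 5 exon and 3 to 6 intron summits. The larger list gave 5 promoter and 8 intron summits. Leaving out summits near small RNA genes, an alternative chosen after seeing the data like that of G or C runs, gave 6 genes with 7 summits. Leaving out summits with a G or C run of at least 10 gave 7 genes with 10 summits. Only unc-33, unc-51, unc-44 and unc-76 have a conservative summit of neither kind. The share of all protein-coding genes left in these ways was not computed. The median GC content at summits was 57.8% within 25 bp, 51.5% within 100 bp, 55.4% with the larger list and 58.9% to 59.4% with the replicates' lists. All 12 summits had a region in the ranked lists of both replicates, and a ratio of their signals could be taken at 1585 of the 1675 summits at all genes. These lists run far past the thresholded ones, so this count says little about agreement. The median spliced length of genes with a summit was 4582 bp. The median rank was 53.3 with the larger list. The causes were not tested. No paired analysis was possible because there is 1 group. The lists without read counts give no depth, and peaks of untagged worms were not used here, so no summit could be set against background enrichment and no absent summit against the depth.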
